A study of Mus musculus with 23 samples.

Results

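The genes described here are 9 genes of the blood-testis barrier: Cldn11, Ocln, Tjp1, F11r, Jam3, Cdh2, Ctnnb1, Nectin2 and Gja1. They were found as the non-control probes of a mouse expression array whose RefSeq transcript belongs to one of these genes, which gave 12 of the 26582 probes with a gene name and 9 of the 20145 named genes. Of these, 7 genes with 9 probes were well above background on all 23 arrays, and Cldn11 and Ocln were well above background on 0 of the 23. The cells were TM4, a line of immortalized Sertoli cells from the mouse, and every group was cultured in 1% DMSO for 48 hr. The 5 treated groups also received 100 μM of 1 plasticizer compound. These were MEHP, a monoester of phthalic acid, DINCH, a diester of cyclohexane dicarboxylic acid, DOM and DOS, the dioctyl esters of maleic and succinic acid, and BDB, a dibenzoate of butanediol. DOS had 3 arrays (replicates 1, 3 and 4) and every other group had 4, and the study's methods call these biological replicates.

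In the testis, neighbouring Sertoli cells close the space between them with tight junctions, adherens junctions in the actin-rich basal ectoplasmic specialization, and gap junctions. Together these seal off the meiotic germ cells from the circulation and are taken apart and rebuilt as germ cells cross toward the lumen. A line grown alone on plastic has no germ cells and no seminiferous tubule, so its junction transcripts describe Sertoli-derived cells in contact with each other only.

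One Cy3-labelled RNA went on each 1-colour array, and the 23 arrays were spread over 3 slides. Every replicate 1 array lay on slide 1, whose only other arrays were replicate 2 of MEHP and of DOM. Changes within slide 1 thus rest on DMSO replicate 1 alone. A level below is the log2 signal of a probe relative to the 75th percentile of its array, a change is a difference of 2 mean levels, and values are means ± SD over arrays. Levels were not compared between probes of different genes, although those of myoid markers were summed over genes below. The 75th percentile of the processed signal lay between 205 and 351, 43.4% to 52.2% of an array's spots were well above its background, and 0 spots were saturated. Of 16 Sertoli cell markers 8 were well above background on all 23 arrays (among them Gata4, Dhh, Inha, Inhbb, Kitl, Nr5a1 and Dmrt1), 5 on some, and Wt1, Fshr and Sox8 on 0. The peritubular myoid cell markers Acta2, Cnn1 and Tagln were on all 23, Des on 4 and Myh11 on 0, whereas germ cell markers were on all 23 arrays for 0 of 6. Of 6 Leydig cell markers 1 was on all 23 arrays, and of 6 endothelial and blood cell markers 3 were. DMSO, DOM and DOS lay in even rows of the slides and MEHP, DINCH and BDB in odd rows, so for the last 3 the row cannot be told apart from the comparison with DMSO. Because RNA was taken from whole wells, fewer cells expressing a gene and less of its RNA per cell cannot be told apart.

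A gene was called when a probe had an adjusted p below 0.05 in limma, with Benjamini-Hochberg adjustment over all tested probes, and a change above 1.5-fold. The one member called against DMSO was Nectin2, which fell with DOM by one of its 2 probes. The widest spreads of group means among the tested members were those of this Nectin2 probe, from 1.57 with DOM to 2.83 with DINCH, and of Gja1, from 0.71 with DINCH to 1.76 with DOM. The 250 bases before the annotated start of these genes are printed because they are the members that the results turn on. They are from RefSeq on GRCm38.p6, given 5′ to 3′ on the strand of the gene, which is minus for Nectin2 (chr7:19749574-19749823) and plus for Gja1 (chr10:56377050-56377299). Capitals mark the motifs found on either strand.
Nectin2: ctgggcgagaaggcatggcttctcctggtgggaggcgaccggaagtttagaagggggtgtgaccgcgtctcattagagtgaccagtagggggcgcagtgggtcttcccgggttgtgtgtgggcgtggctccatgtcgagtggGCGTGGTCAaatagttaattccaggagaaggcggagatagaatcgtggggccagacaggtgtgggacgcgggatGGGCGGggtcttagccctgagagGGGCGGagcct
Gja1: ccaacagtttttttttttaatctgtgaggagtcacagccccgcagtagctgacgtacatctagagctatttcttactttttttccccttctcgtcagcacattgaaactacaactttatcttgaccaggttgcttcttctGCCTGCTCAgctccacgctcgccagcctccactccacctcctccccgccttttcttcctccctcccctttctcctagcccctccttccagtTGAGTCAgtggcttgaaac
The motifs searched were the TATA box TATAAA, the GC box GGGCGG, the CCAAT box of those letters, the AP-1 site TGANTCA, the antioxidant response element core TGANNNNGC and the TCF/LEF site CTTTGAT. The Nectin2 window, 62% G and C, held a GC box starting at -34 and at -11 and the antioxidant response element core at -108, counted from the start. The Gja1 window, 50% G and C, held the AP-1 letters at -19 and the antioxidant response element core at -110. Of 32841 windows of this length, 32.7% held the GC box, 6.75% the AP-1 letters and 35.2% the antioxidant response element core, while the TATA box, the CCAAT box and the TCF/LEF site, which neither window held, were in 12.4%, 33.9% and 3.21%. The matches describe letters only and were set against no measurement.

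**Figure D1:**
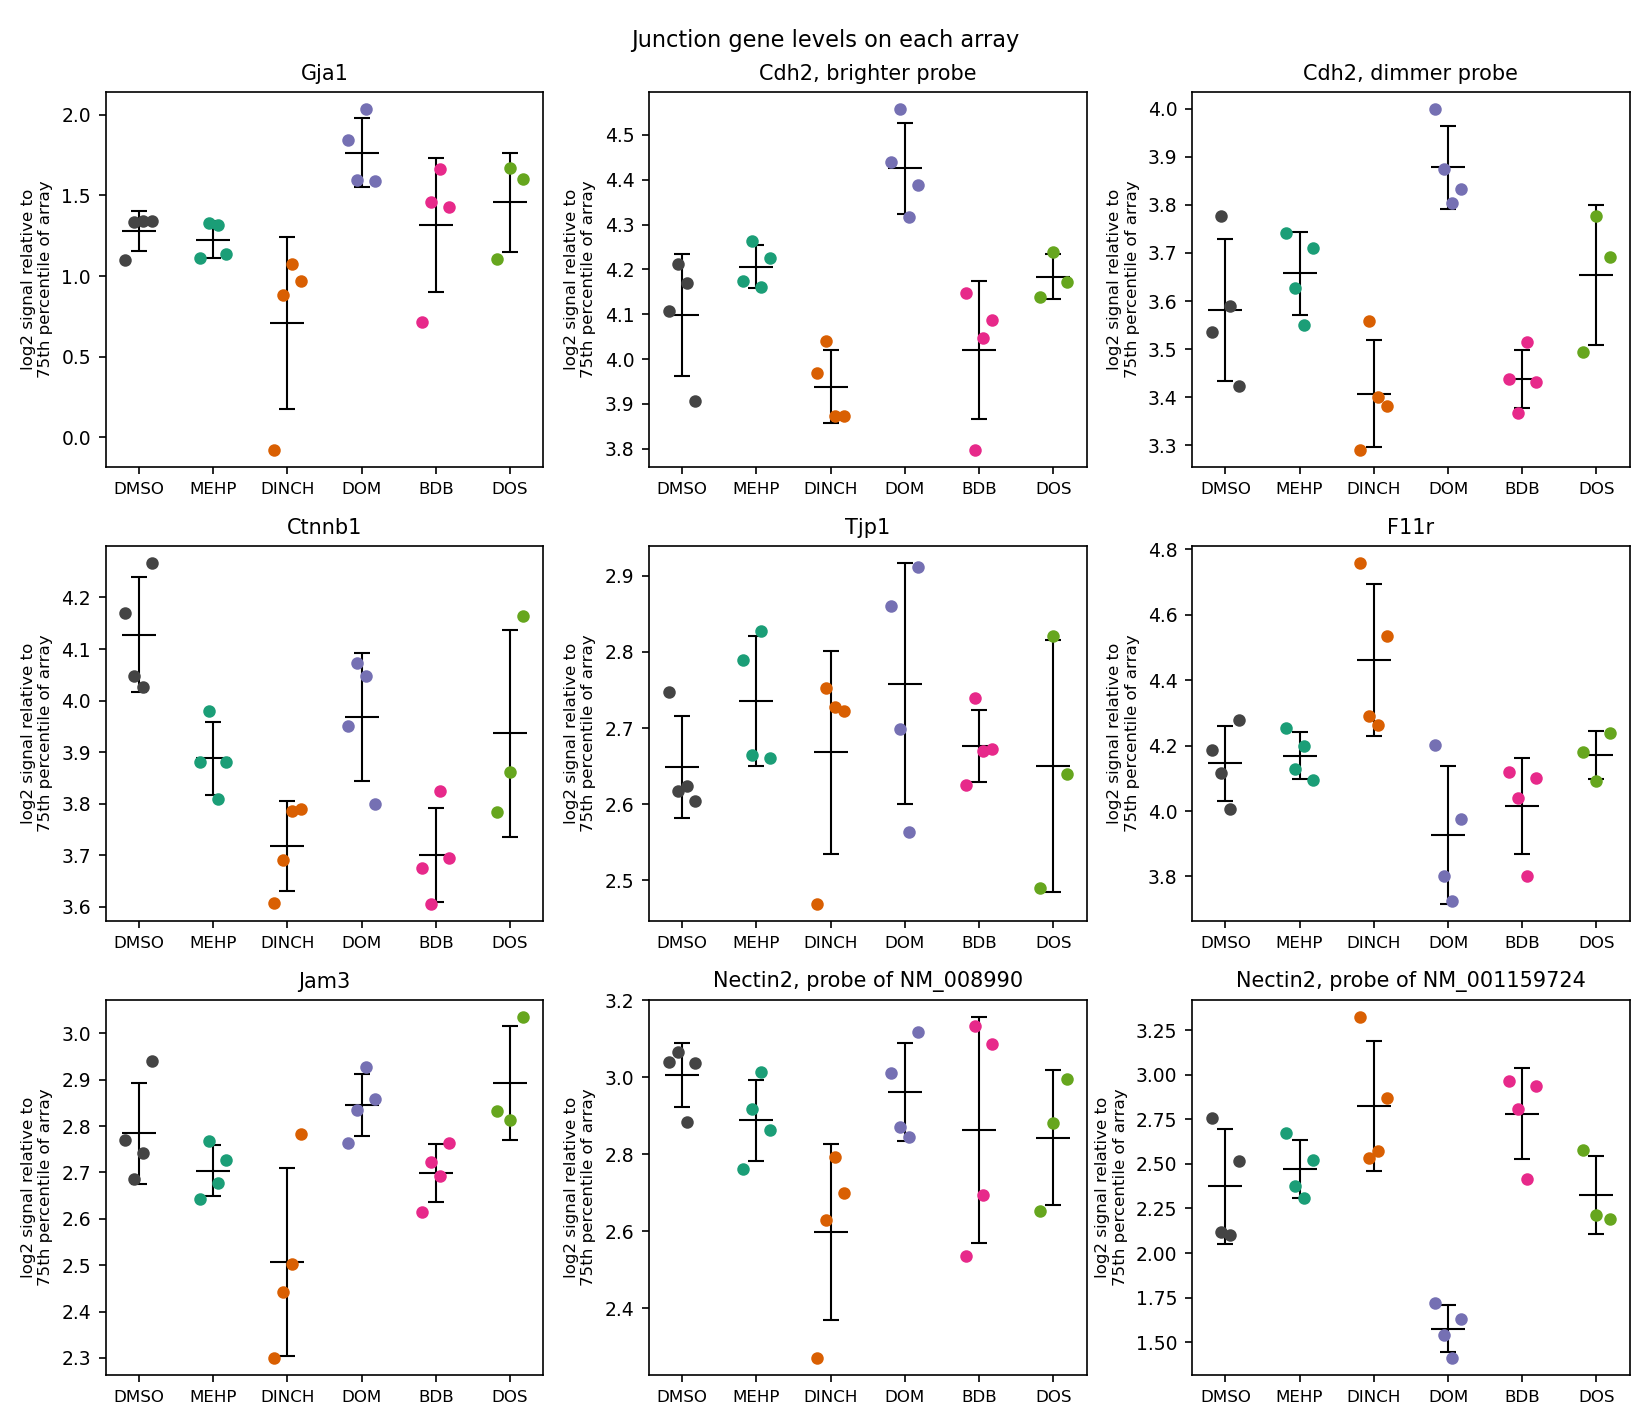
Level of the 9 member probes above background on each of the 23 arrays (points, log2 signal relative to the 75th percentile of the array) by treatment group, with the mean and SD of each group as a bar. The probe of Nectin2 transcript NM_001159724 lay at 1.41 to 1.72 on the 4 DOM arrays and at 2.10 or above on all others, and Gja1 lay lowest on DINCH replicate 1 at -0.08.

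The tight junction members split into genes at background and genes that were well measured. Cldn11, the claudin that forms the Sertoli cell tight junction strands, had processed signals of 2.59 to 5.91 over the 23 arrays. Ocln, which encodes the tight junction membrane protein occludin, had signals of 2.33 to 8.88 by one probe and 2.07 to 4.08 by the other. None of these 3 probes was well above background on any array, so they were not tested and no fold is given. A level well above background started at -5.15 to -4.02, depending on the array, and the highest level of these probes was -4.72.

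Tjp1, which encodes the scaffold ZO-1 that ties the strands to actin, was the least variable member, with an SD of 0.11 over the 23 arrays. The DMSO arrays lay at 2.75, 2.62, 2.62 and 2.60 (in order of replicate number), and the group means ran from 2.65 with DMSO to 2.76 with DOM. Every pair of neighbouring groups in that order overlapped. The largest change against DMSO was 0.11 with DOM (95% confidence interval -0.13 to 0.35, adjusted p in limma = 0.448).

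F11r and Jam3 encode junctional adhesion molecules, immunoglobulin-type proteins of the tight junction. F11r levels were 4.19, 4.12, 4.01 and 4.28 on the DMSO arrays and 4.76, 4.29, 4.26 and 4.54 on the DINCH arrays. Of the DINCH arrays 3 lay above every DMSO array, with a change of 0.31 ± 0.13 (SE) that did not pass the test (adjusted p in limma = 0.163). With DOM the levels were 4.20, 3.80, 3.73 and 3.98. Of these, 3 lay below every DMSO array, with a change of -0.22 (95% confidence interval -0.50 to 0.06, adjusted p in limma = 0.208). The order of the means was DOM, BDB, DMSO, MEHP, DOS and DINCH, and among neighbours DOS and DINCH alone did not overlap.

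Jam3 levels were 2.77, 2.69, 2.74 and 2.94 with DMSO and 2.30, 2.44, 2.50 and 2.78 with DINCH. Of the DINCH arrays 3 lay below every DMSO array, with a change of -0.28 ± 0.12 (SE) that did not pass the test (adjusted p in limma = 0.184). The other 4 compounds moved Jam3 by -0.09 to 0.11. All neighbouring groups overlapped.

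Among the adherens junction members, Cdh2 encodes N-cadherin, the main classical cadherin between Sertoli cells. By its brighter probe (A_55_P2029711) the levels were 4.11, 4.21, 4.17 and 3.91 with DMSO and 4.44, 4.56, 4.32 and 4.39 with DOM. Every DOM array lay above every array of the other 5 groups. The change was 0.33 ± 0.10 (SE), below the 1.5-fold threshold (adjusted p in limma = 0.0402). Its dimmer probe gave 3.54, 3.78, 3.59 and 3.42 with DMSO and 4.00, 3.88, 3.80 and 3.83 with DOM, a change of 0.30 ± 0.10 (SE) with an adjusted p in limma of 0.0573. Both probes thus differed by a similar amount and lay on opposite sides of 0.05. Groups that do not overlap were common with DOM, where 39.4% of all genes by their brightest probe had every DOM array on one side of every DMSO array. Leaving out 1 array at a time kept the adjusted p of the brighter probe below 0.05 in 2 of 8 cases. With the other compounds Cdh2 was at 3.80 to 4.26, and the order of the means was DINCH, BDB, DMSO, DOS, MEHP and DOM.

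Ctnnb1 encodes β-catenin, which links cadherins to the actin cytoskeleton and also carries Wnt signals to the nucleus. Levels were 4.17, 4.05, 4.03 and 4.27 with DMSO, 3.61, 3.69, 3.78 and 3.79 with DINCH, and 3.68, 3.61, 3.82 and 3.69 with BDB. With MEHP they were 3.88, 3.98, 3.81 and 3.88. All 12 arrays of these 3 compounds lay below all 4 DMSO arrays, a separation that 24% of all genes showed with DINCH, 12% with BDB and 14.4% with MEHP. With DOM they were 3.95, 4.07, 4.05 and 3.80 and with DOS 3.78, 3.86 and 4.16, which overlapped DMSO. The change was -0.41 ± 0.10 (SE) with DINCH, or 1.33-fold lower (adjusted p in limma = 0.03), and it missed the fold threshold. Within the slides it was -0.56, -0.35 and -0.48. The change was -0.43 ± 0.09 with BDB (adjusted p in limma = 0.095) and -0.24 ± 0.08 with MEHP (adjusted p in limma = 0.195). Leaving out 1 array at a time kept the DINCH adjusted p below 0.05 in 1 of 8 cases, and it was 0.111 without replicate 1 in either group. The 3 compounds are those of the odd rows. Over the rows Ctnnb1 lay at 3.61 to 3.98 in the odd and 3.78 to 4.27 in the even rows, and compound and row cannot be told apart here.

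Nectin2 encodes an immunoglobulin-like adhesion protein of the ectoplasmic specialization, which binds nectins on the neighbouring cell. The array reads it with one probe assigned to transcript NM_008990 (A_55_P2167025, the brighter) and one to NM_001159724 (A_52_P188678), and the probes differed in behaviour. By the NM_001159724 probe the levels were 2.76, 2.12, 2.10 and 2.52 with DMSO and 1.72, 1.54, 1.41 and 1.63 with DOM. Every DOM array lay below every array of the other 5 groups. Against DMSO alone, 39.4% of all genes by their brightest probe had DOM arrays that did not overlap. Nectin2 fell by this probe by 0.80 ± 0.16 (SE) on the log2 scale, 1.74-fold (adjusted p in limma = 0.00573), and the change within the 3 slides was -1.13, -0.70 and -0.89. By the NM_008990 probe the levels were 3.04, 3.07, 2.88 and 3.04 with DMSO and 3.01, 2.87, 2.85 and 3.12 with DOM. These overlapped, with a change of -0.04 (95% confidence interval -0.27 to 0.18, adjusted p in limma = 0.756).

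The NM_001159724 probe also carried a replicate pattern. Replicate 1 was its highest array in 6 of 6 groups, and without replicate 1 in either group the change with DOM was -0.72 (adjusted p in limma = 0.0146). All replicate 1 arrays lay on slide 1. For DMSO, DINCH, BDB and DOS no other array did, so replicate 1 and slide 1 cannot be told apart in these groups. With DINCH the levels of this probe were 3.32, 2.54, 2.57 and 2.87 and with BDB 2.97, 2.81, 2.42 and 2.94. The changes were 0.45 ± 0.21 (SE) and 0.41 ± 0.18 and did not pass the test (adjusted p in limma = 0.211 and 0.34). With the replicate number as a block the DINCH change was 0.45 ± 0.08 with an adjusted p in limma of 0.0209, still under the fold threshold, and the BDB value was 0.105. The NM_008990 probe was at 2.27, 2.63, 2.79 and 2.70 with DINCH, below all 4 DMSO arrays, a separation that 24% of all genes showed. Its change was -0.41 ± 0.13 (SE) with an adjusted p in limma of 0.0703. For DINCH the probes thus had opposite signs.

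The difference between the probes within an array does not depend on the scaling of the array. It was chosen after the levels were seen and is given as a description. An exact permutation test of it over arrays, adjusted over the 5 compounds, passed for none. The lowest adjusted p in that test was 0.0715, with DOM and with DINCH. Both had the smallest p that the 70 labellings of the arrays allow (0.0286 before adjustment in that test). Full separation in these compounds alone could therefore not pass, and the test cannot decide. The difference was -0.63 ± 0.29 with DMSO (n = 4, -0.95 to -0.28) and -1.39 ± 0.09 with DOM (n = 4, -1.49 to -1.29). With DINCH it was 0.23 ± 0.57 (-0.22 to 1.05) and with BDB -0.08 ± 0.35 (-0.32 to 0.43). The DOM arrays lay below and the DINCH arrays above every DMSO array. The difference shifted by -0.75 with DOM, 0.86 with DINCH and 0.55 with BDB. Against the DMSO array of the same replicate number it was lower in 4 of 4 DOM arrays and higher in 4 of 4 DINCH, BDB and MEHP arrays. With DOS it was higher in 2 and lower in 1 of 3. The replicate numbers were not taken as pairs for DOM and MEHP. DINCH, BDB and MEHP are the compounds of the odd rows, so compound and row cannot be told apart here.

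**Figure D2:**
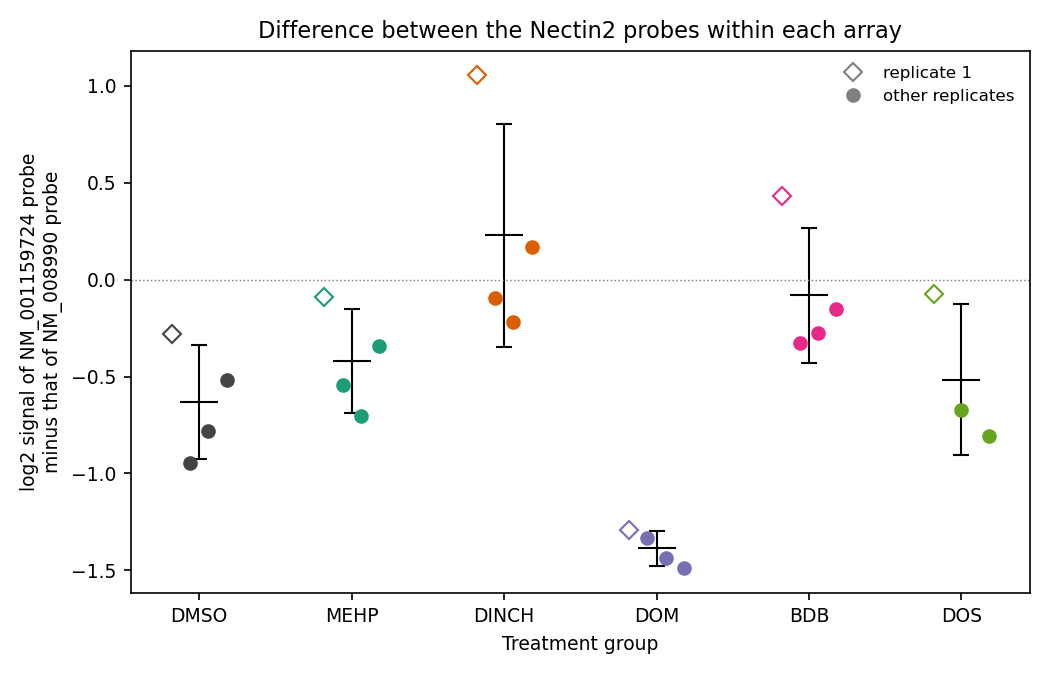
Difference between the Nectin2 probes within each array (log2 signal of the NM_001159724 probe minus that of the NM_008990 probe) by treatment group, with mean and SD as bars and replicate 1 as open diamonds. Replicate 1 was the highest point in 6 of 6 groups, and the 4 DOM arrays, at -1.49 to -1.29, lay below all 19 other arrays.

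Gja1 encodes connexin 43, the main gap junction protein of Sertoli cells, and was measured by 10 spots of 1 probe on every array. Levels were 1.10, 1.34, 1.34 and 1.34 with DMSO. With DOM they were 1.84, 1.59, 2.03 and 1.59. Every DOM array lay above every DMSO array, a separation that 39.4% of all genes showed with DOM. The change was 0.49 ± 0.13 (SE), or 1.40-fold. It had an adjusted p in limma of 0.0181 and missed the fold threshold. The change within the slides was 0.62, 0.70 and 0.25. Without replicate 1 in either group it was 0.40 (adjusted p in limma = 0.0849).

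With DINCH the Gja1 levels were -0.08, 0.88, 1.07 and 0.97. All lay below the 4 DMSO arrays, a separation that 24% of all genes showed with DINCH. The change was -0.57 ± 0.23 (SE, adjusted p in limma = 0.158). DINCH replicate 1 carried part of this value, since without it the change was -0.30 (adjusted p in limma = 0.133). The 10 spots of that array ran from -1.19 to 0.79 with an SD of 0.63, against a median SD of 0.14 over the arrays. With the slide as a block the change was -0.60 and passed both thresholds (adjusted p in limma = 0.042). Gja1 was at 1.11, 1.33, 1.32 and 1.14 with MEHP, 0.71, 1.46, 1.67 and 1.43 with BDB, and 1.10, 1.67 and 1.60 with DOS. These overlapped DMSO, with changes of -0.06, 0.04 and 0.18. Replicate 1 was the lowest Gja1 array in 5 of 6 groups.

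**Figure D3:**
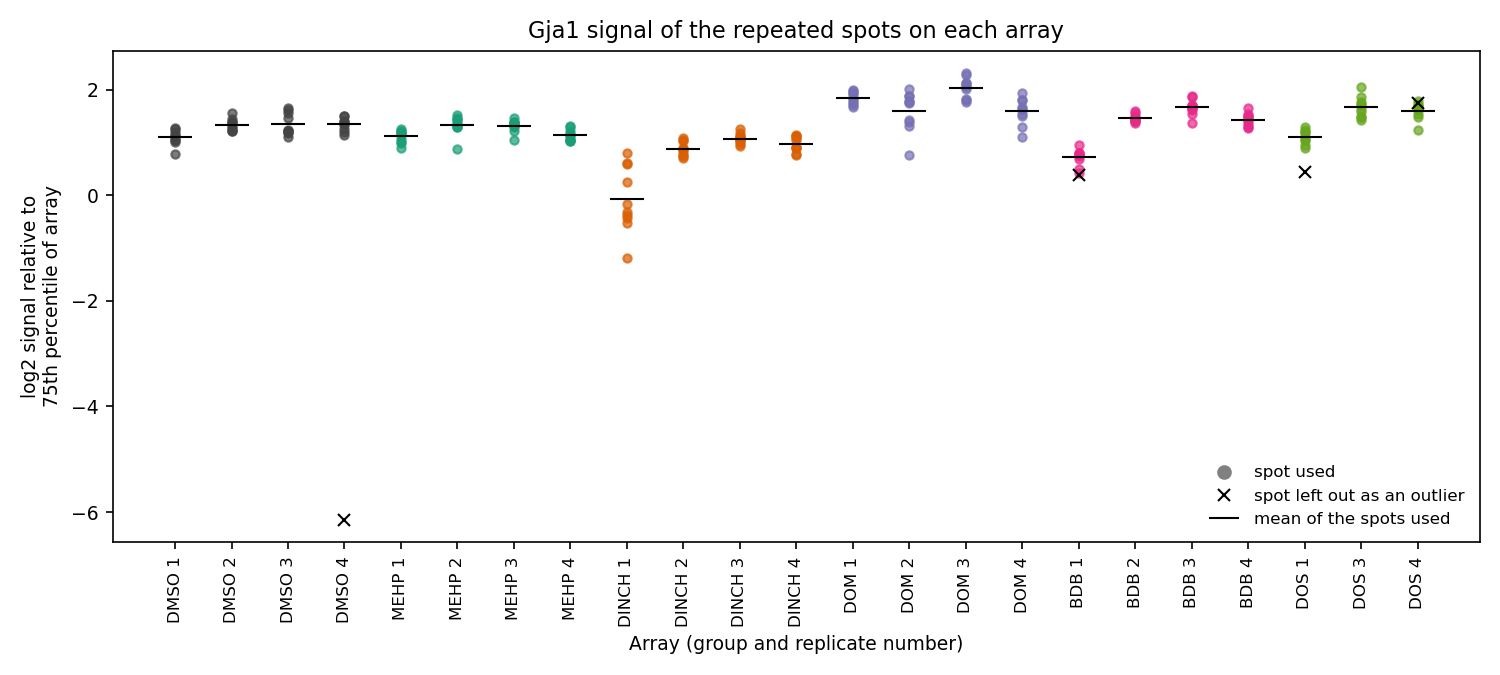
Gja1 level of each of the 10 spots on each of the 23 arrays (log2 signal relative to the 75th percentile of the array), with spots left out as outliers as crosses and the mean of the spots used as a line. The spots of DINCH replicate 1 spread over -1.19 to 0.79, and 1 outlier spot on DMSO replicate 4 lay at -6.14.

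Outlier spots mattered for Gja1 alone among the members with several spots. The extraction software marked 4 of its spots, on 4 arrays, and 0 of the Ctnnb1 spots. On DMSO replicate 4 one spot lay at -6.14, and the mean of that array was 1.34 without it and 0.59 with it. Keeping the outlier spots turned the DOM change to 0.67 (adjusted p in limma = 0.0219, past both thresholds) and the DINCH change to -0.38.

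Counted by compound, DOM called 1 of 7 tested members (Nectin2, lower), where 20.5% of the 12005 genes tested were called and 10.6% were called lower. DINCH called 0 of 7, where 8.26% of 11913 genes were called, and MEHP 0 of 7, where 1.68% of 11948 were. BDB and DOS called 0 of 7 members and 0% of all genes. The members with an unadjusted p below 0.05 in limma by any of their probes numbered 1 with MEHP, 5 with DINCH, 3 with DOM, 2 with BDB and 0 with DOS. Over all tested probes the same threshold was met by 3918 of 24188 with MEHP, 6287 of 24001 with DINCH, 10345 of 24348 with DOM, 3494 of 24291 with BDB and 1725 of 24209 with DOS. These are counts of probes and not of genes, so the shares are not on the same footing as the member counts. The median change over the 7 tested members was -0.06 with MEHP, -0.28 with DINCH, 0.06 with DOM, -0.09 with BDB and 0.02 with DOS. Over all tested genes it was -0.01, -7e-04, -0.03, -0.03 and -0.01. All 5 comparisons share the same 4 DMSO arrays, so that the deviation of these arrays enters each of them.

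**Figure D4:**
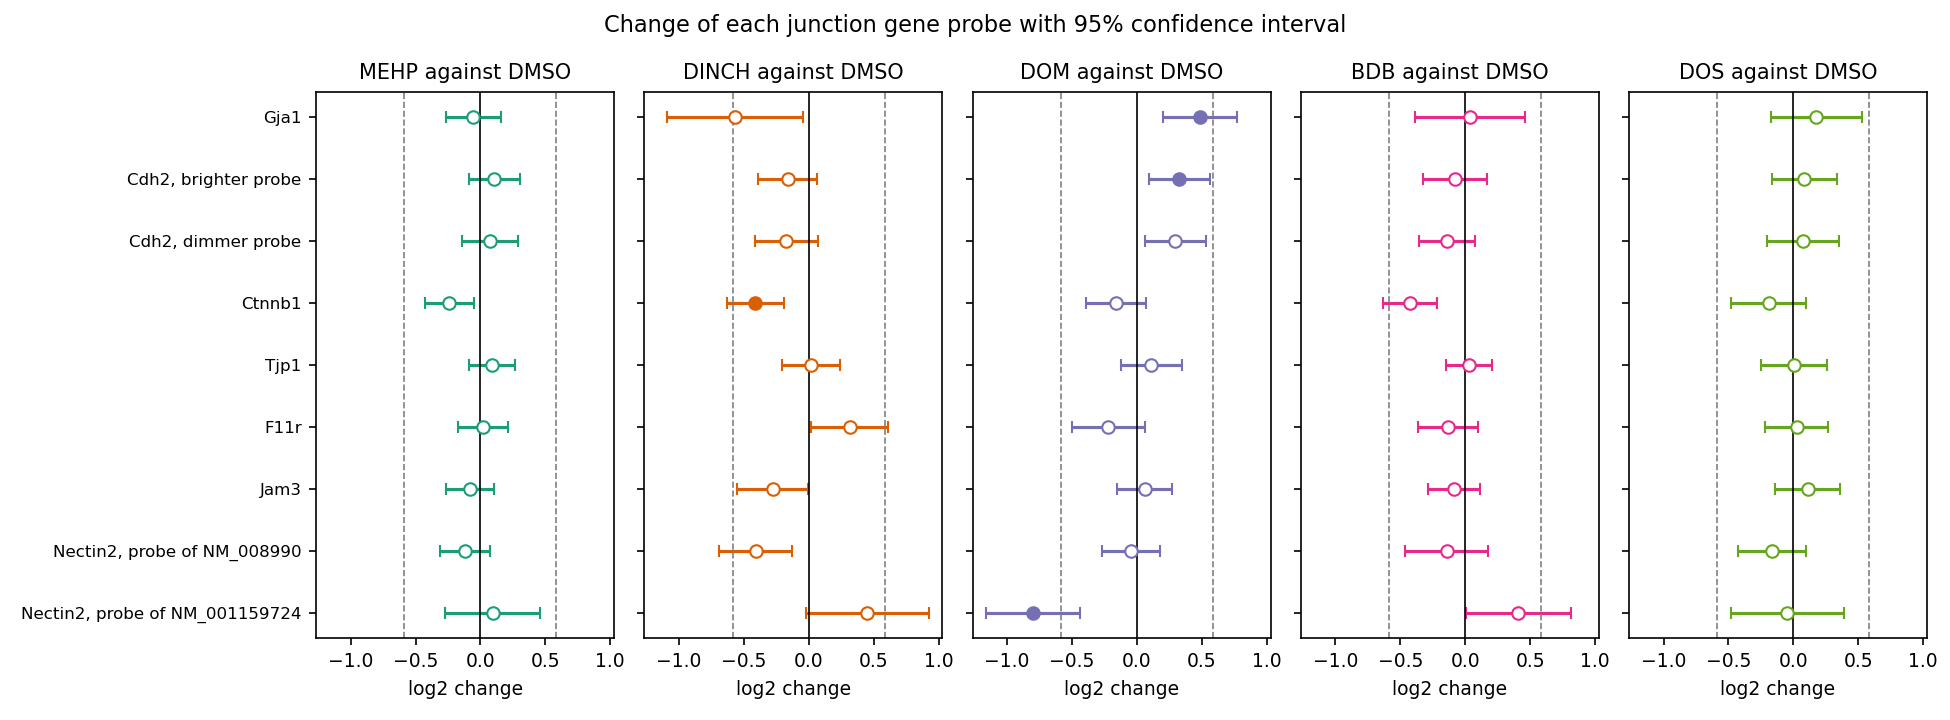
Change of each member probe against DMSO (log2, points) with its 95% confidence interval, by compound. Filled points have an adjusted p below 0.05 and dashed lines mark a 1.5-fold change. The NM_001159724 probe of Nectin2 with DOM is the one filled point beyond a dashed line, at -0.80.

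DOM and DOS are both dioctyl esters of a 4-carbon diacid and differ in structure by the double bond that maleate has and succinate lacks. They were given at the same dose and time and lay in the same slide rows. Between them 1 of 7 tested members was called (Nectin2), where 15.2% of 11935 genes were called and 8.06% were called lower. By the NM_001159724 probe DOM minus DOS was -0.75 on the log2 scale (95% confidence interval -1.06 to -0.44, adjusted p in limma = 0.0088). The DOS arrays lay at 2.58, 2.21 and 2.19, all above the DOM arrays, a separation that 38.6% of all genes showed. By the NM_008990 probe the difference was 0.12 (-0.17 to 0.41, adjusted p in limma = 0.544), with the opposite sign. For Gja1 the difference was 0.31 (-0.09 to 0.71) and for the brighter Cdh2 probe 0.24 (0.00 to 0.48), with adjusted p in limma of 0.247 and 0.137. For Ctnnb1 it was 0.03 (-0.27 to 0.33), for Tjp1 0.11 (-0.19 to 0.41), for F11r -0.24 (-0.55 to 0.06) and for Jam3 -0.05 (-0.29 to 0.20). These intervals bound the differences and do not show that the compounds acted alike.

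MEHP and DINCH differ in the ring, aromatic in MEHP and saturated in DINCH, and in the number of ester groups and the alcohol. Between them 0 of 7 members were called, where 2.4% of 11836 genes were called. By any of their probes 4 of the 7 had an unadjusted p below 0.05 in limma. Counted by probe and not by gene, 4479 of 23673 had such a p. Gja1 was higher with MEHP in 4 of 4 arrays, by 0.51 (95% confidence interval 0.00 to 1.02, adjusted p in limma = 0.263). For Cdh2 the difference was 0.27 (0.08 to 0.46) and for F11r -0.29 (-0.57 to -0.02), with adjusted p in limma of 0.13 and 0.236. Groups that did not overlap between MEHP and DINCH made up 17.1% of all genes.

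Further junction genes were taken from lists of other members of the same structures. In the tight junction list 14 of 32 genes were well above background on all 23 arrays and 11 on none. Cldn7 and Cldn12 were the claudins on all arrays. Cxadr, an adhesion protein of the same immunoglobulin family as the junctional adhesion molecules, fell by 1.77 with DOM (adjusted p in limma = 0.000841), by 1.23 with DINCH (0.00987) and by 0.78 with MEHP (0.0499). Its DMSO mean was 2.18 ± 0.28 (n = 4), and it was 1.40 with MEHP, 0.95 with DINCH, 0.42 with DOM, 1.95 with BDB and 1.26 with DOS. Cgn, the junction scaffold cingulin, rose by 1.44 ± 0.13 (SE) with DINCH (adjusted p in limma = 0.00258). In this list 1 gene was called higher and 1 lower of 16 tested with DOM and likewise with DINCH. With MEHP 1 of 15 tested was called lower. Of all tested genes 20.5% were called with DOM, 8.26% with DINCH and 1.68% with MEHP.

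In the adherens junction and ectoplasmic specialization list, DOM raised 5 and lowered 2 of 24 tested genes, where 20.5% of all tested genes were called. Nectin1, a relative of Nectin2, rose by 0.96 ± 0.15 (SE, adjusted p in limma = 0.00182), with a mean of -1.08 with DMSO and -0.12 with DOM. Eps8, an actin-capping protein of the ectoplasmic specialization, rose by 0.96 by one probe, whereas its brighter probe changed by 0.55, under the fold threshold. Cdh11, a mesenchymal cadherin, rose by 0.81 with DOM and fell by 0.90 with DINCH by one probe, and by its brighter probe the changes of 0.57 and -1.54 did not pass (adjusted p in limma = 0.19 and 0.0868). Itga6, a subunit of laminin-binding integrins, fell by 0.84 with DOM. DINCH raised 1 and lowered 1 of 23 tested (Cdh13 by 0.61 and Cdh11), where 8.26% of all tested genes were called. MEHP, BDB and DOS called 0, where 1.68%, 0% and 0% of all tested genes were called. With these 3 compounds 8, 6 and 1 genes of the list had an unadjusted p below 0.05 in limma. The median change of the list was 0.07 with MEHP, 0.13 with DINCH and 0.10 with DOM.

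Of the gap junction list 0 of 5 tested genes passed with DOM (2 at an unadjusted p below 0.05 in limma), where 20.5% of all tested genes were called. Of 3 tested desmosome genes 1 was called with DOM (Pkp4, lower by 1.09) and 1 with MEHP (Pkp2, higher by 0.89). Of all tested genes 20.5% and 1.68% were called with these compounds. Both genes encode plakophilins of the desmosome plaque. Of the junction regulators, secreted Tgfb2 rose with MEHP by 0.89 and with DINCH by 0.74, Tgfb3 rose by 0.85 with DOM, and the repressor Snai2 fell by 0.72 with DINCH. BDB and DOS called 0 genes of all these lists. Between DOM and DOS, Nectin1 (0.97), Eps8 (0.87) and Cdh11 (0.62) were higher with DOM and Itga6 (-0.85) and Pkp4 (-1.07) lower, and between MEHP and DINCH Cgn (-0.96) was lower with MEHP.

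**Figure D5:**
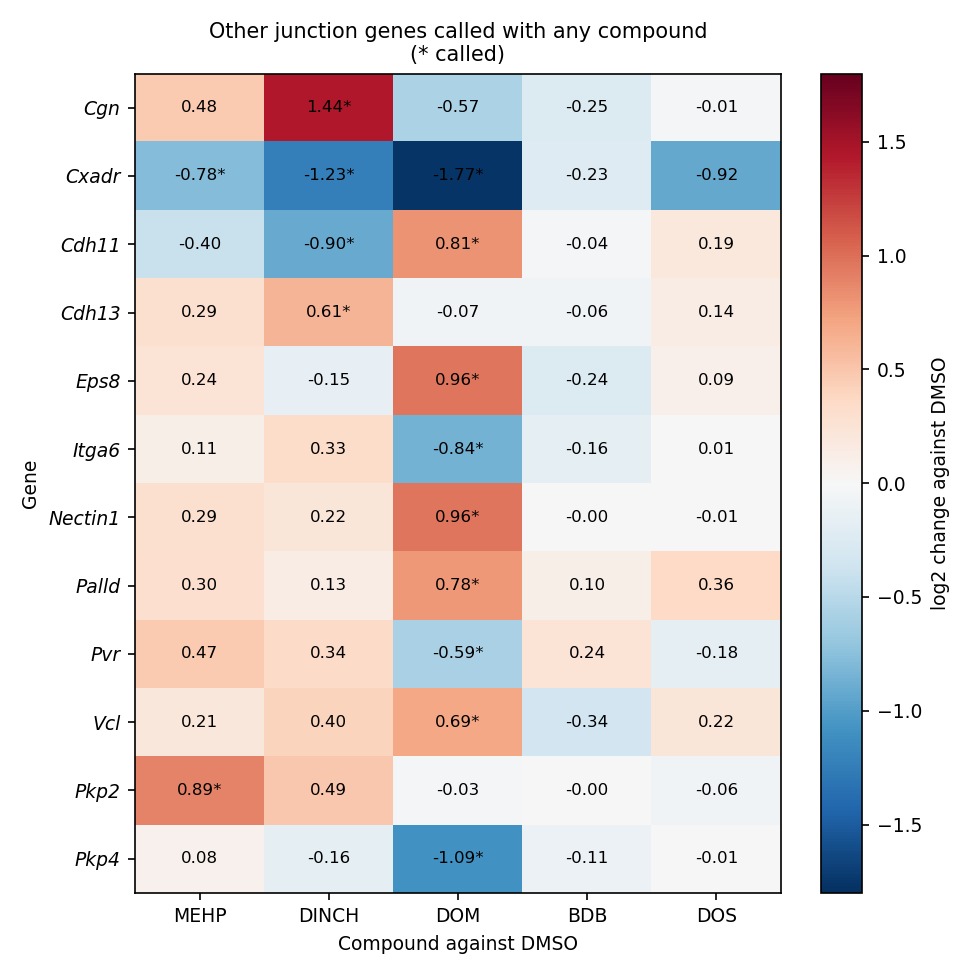
Change against DMSO (log2, colour and number) of 12 junction genes outside the 9 that were called with at least 1 compound, for the probe with the smallest adjusted p. Stars mark calls, and Cxadr is starred with MEHP (-0.78), DINCH (-1.23) and DOM (-1.77).

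Some markers of other testis cells moved with the compounds too. Of the 3 tested peritubular myoid markers Cnn1 fell by 1.21 with DOM, while Acta2 and Tagln changed by 0.38 and -0.19 without a call. The summed level of all 5 myoid markers, tested or not, ran from 118 to 158 with DOM and 116 to 149 with DMSO. It was 203 to 250.8 with DOS, in units of the 75th percentile signal. Myh11, a defining myoid marker, was above background on 0 arrays. Of the 9 tested Sertoli markers Inha and Inhbb rose and Sox9 fell with DOM, where 20.5% of all tested genes were called. Sox9 was dim, with means of -4.03 with DOM and -3.11 with DMSO, and well above background on 2 of 4 DOM arrays. With DINCH Dhh and Inha rose, where 8.26% of all tested genes were called. The part of these myoid and Sertoli markers in the Nectin2 result was not tested.

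Levels of the members were compared across the 23 arrays as a description, in which arrays share slides and treatments. Gja1 and the NM_001159724 probe of Nectin2 ran in opposite directions (Pearson r = -0.782 over 23 arrays and -0.744 after each group mean was removed). F11r ran with that probe (0.673 and 0.776). Replicate 1 was the lowest array of Gja1 in 5 of 6 groups. It was the highest of this Nectin2 probe in 6 of 6 and of F11r in 4 of 6. Removing group means leaves such a deviation, shared by replicate number or by slide, in place. Its part in these correlations was not tested. The Cdh2 probes ran together over all arrays (0.884) and less within groups (0.565), and the Nectin2 probes did not (-0.443 and -0.276). The genes most like the brighter Nectin2 probe among 11157 were Dido1 (r = 0.822), Pdhx (0.819) and Smim10l1 (0.81). Chosen after the values were seen, those most like the probe that was called were Ptcd2 (0.962), Xrcc6 (0.961) and Slc35f2 (0.96), and most like Gja1 were Cdh11 (0.926), Adcy7 (0.912) and Sipa1l2 (0.902).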

How the data were processed

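Arrays of TM4 cells (250000 cells seeded per well) were scanned by the authors, whose extraction software gave the deposited intensities, which are linear, background-subtracted and detrended, with no scaling across arrays. Log2 values, shifted to the 75th percentile and centred by the authors, were deposited too, and each array correlated at 0.9996 or above with its own column of them and at 0.408 or below with any other. The methods state that 1 DOS replicate was left out for high background.

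Here log2 intensities (floor 1) were set relative to the 75th percentile of the 59305 non-control spots of 55681 probes. The mean over a probe's spots was used after removal of 102 to 187 outlier spots per array. Symbols came from RefSeq accessions, and 29099 probes had no name. Tested probes were those that, on every array of one of the groups compared, reached the 20th percentile and were well above background. limma 3.58.1 in R 4.3.3, with version 1.17.8 of data.table, was fitted to the 2 groups compared, with Benjamini-Hochberg adjustment over 23673 to 24348 probes. The fits were tested on simulated data. Figures used Python 3.11.15 with matplotlib 3.10.9 and pandas 2.3.3. Arrays have no read depth, so their number limits the precision.

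The members, the gene lists and the tests were chosen with earlier results of these data known. The genes named are the 9 members by the brightest probe, with other probes where they disagree, up to 8 called genes with the largest change from the other junction lists in each comparison, and the 3 genes most correlated with each called member. A list gene counted once when any probe was called. Some genes of the lists are not reported here.

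Replicate numbers are shared between groups. For arrays of the same number, the deviations from the group mean correlated at 0.169 to 0.497 for DINCH and DMSO. The correlations were 0.254 to 0.434 for BDB and 0.199 to 0.452 for DOS. For DINCH, BDB and DOS the numbers were taken as pairs from the values. Correlations of -0.14 to 0.454 for MEHP and 0.039 to 0.431 for DOM were not taken as pairs. The main fits used no pairs for any compound, and the replicate number entered as a block among the alternatives only.

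Alternatives were quantile normalization, normexp background correction (offset 50), dim probes unfiltered or detected on 1 array, a block for slide or for replicate number, a joint fit of the 6 groups, retained outlier spots, only the brightest probe, a variance trend, the authors' log2 values and each array left out in turn. Leaving out replicate 1 in both groups was added after seeing the data.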

Additional observations from a re-analysis of the deposited data

Results flagged for a closer look

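Of 45 sets of 4 arrays (a member probe in a group), 5 had an end array set apart from the rest by more than the 95% critical value of Dixon's test, which chance does in about 1 of 20 sets. For Gja1, DMSO replicate 1 was at 1.10 with the next array at 1.34, and DINCH replicate 1 at -0.0782 with the next at 0.88. For Tjp1, DMSO replicate 1 was at 2.75 with the next at 2.62, and DINCH replicate 1 at 2.47 with the next at 2.72. For the NM_008990 probe of Nectin2, DMSO replicate 3 was at 2.88 with the next at 3.04. Of the 5 arrays, 4 were numbered replicate 1, and these lay on slide 1.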

How the results depend on the processing

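The number of members called was unchanged under all alternatives for MEHP, BDB and DOS against DMSO and for MEHP against DINCH (0 in each). With DINCH it went from 0 to 1 with the slide as a block (Gja1). With DOM it went from 1 to 2 with outlier spots kept (Gja1) and to 0 with the brightest probe only, since the other Nectin2 probe made the call. Between DOM and DOS it went from 1 to 0 without a filter on dim probes (Nectin2 at -0.75, adjusted p in limma = 0.097) and to 0 with the brightest probe only. With each array left out in turn the counts stayed at 0 to 0 for DINCH, 1 to 1 for DOM and 1 to 1 for DOM against DOS. Over the alternatives that tested its probe, the Nectin2 change with DOM ran from -0.91 to -0.67 with adjusted p in limma of 0.00115 to 0.0424, and that between DOM and DOS from -0.82 to -0.63 with 0.0022 to 0.097. 0 results changed direction.

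With the replicate number as a block, the counts of members called were 1 for DOM, 0 for DINCH and 1 for DOM against DOS, as without it. The block gave the Nectin2 change with DOM as -0.80 (adjusted p in limma = 0.0032). The adjusted p of Gja1 with DOM was below 0.05 under 17 of 20 alternatives, of Cdh2 with DOM under 11 of 20 and of Ctnnb1 with DINCH under 10 of 20. The count over all genes ran from 3 to 263 with MEHP, 97 to 1157 with DINCH, 1627 to 2641 with DOM, 0 to 120 with BDB, 0 to 8 with DOS, 401 to 2243 between DOM and DOS and 19 to 375 between MEHP and DINCH, and the cause was not tested. Without a filter on dim probes the median change of all genes moved to -0.10 with DOM. Brightness limits what can be said of Cldn11 and Ocln, which were never well above background.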
